A study of Homo sapiens with 3 samples.

Results

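This is an account of 35 hypoxia and glycolysis genes in single cells of a gut epithelial co-culture. The genes were taken by symbol from the 33538 genes of the deposited tables, and all 35 were found in each library. They cover oxygen sensing, collagen hydroxylation, acid and lactate handling, secreted signals, mitochondria, stress, lipid droplets and the steps of glycolysis. When oxygen is low, prolyl hydroxylases such as EGLN1 and EGLN3 no longer mark the hypoxia-inducible factors (HIFs) for destruction by VHL, and the HIFs pair with ARNT and raise transcription of their target genes. Those targets include glucose transporters, most glycolytic enzymes, kinases that hold pyruvate back from mitochondria, and exporters of lactate and acid. The intestinal epithelium lives on a steep oxygen gradient, and many colorectal tumours use glycolysis strongly even where oxygen is present.

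The cultures combined Caco-2 (passage 8) and HT29 (passage 13), established lines from human colorectal cancers, seeded 9 to 1 into the apical chamber of Transwell inserts and harvested on day 23. Control 1 and control 2 were untreated co-cultures, and the LPS library came from a co-culture given 1 ng/ml lipopolysaccharide of E. coli O111:B4 from day 22 for 24 h. Each library was 1 Transwell, so the p-values below reach no further than these 3 libraries. They rest on a variance estimate that draws on all genes tested, not on the spread of each gene alone. Cells were not labelled by line before pooling, and both lines are cancer lines rather than normal epithelium, so the line of each cell was assigned here from marker genes. RNA was measured with the 10x Genomics 3′ assay, in which each captured molecule carries a unique molecular identifier (UMI). No oxygen measurement is among the values used here.

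Promoter letters are shown for 3 of the genes that differed most between the lines, CA9 and EGLN3, which were higher in HT29-line cells, and BNIP3, which was higher in Caco-2-line cells. Each is the 250 bases before the RefSeq start on GRCh38.p14, written 5′ to 3′ on the strand of the gene, with capitals for ACGTG or GCGTG read on either strand, the core letters of the HIF response element. The windows lie at chr9:35673678-35673927 (plus strand) for CA9, chr14:33951075-33951324 (minus strand) for EGLN3 and chr10:131981924-131982173 (minus strand) for BNIP3.
CA9: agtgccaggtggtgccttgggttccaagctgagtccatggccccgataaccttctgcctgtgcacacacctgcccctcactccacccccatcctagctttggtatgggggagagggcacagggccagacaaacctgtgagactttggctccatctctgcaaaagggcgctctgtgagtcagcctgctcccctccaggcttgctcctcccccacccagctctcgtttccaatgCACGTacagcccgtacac
EGLN3: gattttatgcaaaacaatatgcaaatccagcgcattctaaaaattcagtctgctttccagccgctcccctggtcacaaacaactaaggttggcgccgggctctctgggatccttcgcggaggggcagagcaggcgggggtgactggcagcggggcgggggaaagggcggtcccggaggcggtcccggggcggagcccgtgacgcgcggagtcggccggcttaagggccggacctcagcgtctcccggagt
BNIP3: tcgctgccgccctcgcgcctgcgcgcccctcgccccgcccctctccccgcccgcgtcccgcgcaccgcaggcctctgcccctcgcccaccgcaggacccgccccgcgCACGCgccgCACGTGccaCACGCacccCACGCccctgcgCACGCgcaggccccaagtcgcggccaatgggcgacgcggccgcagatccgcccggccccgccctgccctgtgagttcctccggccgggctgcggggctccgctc
CA9 held 1 match, which begins 18 bases before the start, and BNIP3 held 6 between 143 and 104 bases before it, 2 of them overlapping in one palindrome. The EGLN3 window held 0 matches. RefSeq windows were found for 30 of the 35 genes, and 21 of the 30 (70.0%) held either word against 43.2% of all 35116 promoters of that length. These shares are a description and not a test, since the genes were chosen as hypoxia and glycolysis genes and base content was not matched. A match of 5 letters is a description of the window, not a binding site, and the window is only a small part of the sequence that can regulate a gene.

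Among cells past the minimums, before doublet removal, pairs of libraries had 7, 6 and 5 cell barcodes in common. After the cell filters the libraries held 4633, 4989 and 4850 cells (control 1, control 2 and LPS) with median depths of 5452, 4101 and 3572.5 UMIs. Of these cells 626, 951 and 786 were assigned to the HT29 line and 3875, 3843 and 3892 to the Caco-2 line, while 132, 195 and 172 that could not be assigned were left out. The 137 HT29 markers, which were taken from the study's own cluster genes of these libraries and hold none of the 35 genes, summed to 50351 to 58340.4 UMIs per 1000000 UMIs (CPM) in HT29-line cells and to 5372 to 5839 in Caco-2-line cells. The 24 Caco-2 markers, such as ALB and AFP, summed to 385 to 449 CPM in HT29-line cells against 12283 to 15615 in Caco-2-line cells. Both lists were used to assign the cells, so these sums describe the groups and do not test the assignment. Defining markers of other sources were near 0 in both lines, with sums of at most 27.1 CPM for immune, 33.9 for fibroblast, 2.77 for endothelial and 3.07 for red blood cell genes. An alternative assignment from bulk signatures of the lines put 95.8 to 97.8% of cells in the same line.

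The first comparison asked how the genes differ between the lines that share a well. Hypoxia and glycolysis genes were mostly higher in HT29-line cells. In edgeR's quasi-likelihood test on summed UMIs, with the library as a block and Benjamini-Hochberg adjustment, 30 of the 35 were higher in HT29-line cells, 2 were lower (BNIP3 and PLIN2) and 3 did not pass an adjusted p of 0.05 (ANKRD37, BNIP3L and TPI1). Calls were common in this comparison: 73.0% of the 13972 genes tested passed, 34.8% higher and 38.2% lower. Over the 35 genes the log2 differences had a median of 1.23, beside -0.06 over all genes tested. Values of the lines did not overlap for 31 of the 35, beside 73.0% of all genes tested, and the mean CPM of 10 was at least 4-fold higher in HT29-line cells, beside 8.62%. The 20 genes outside the glycolysis roles took 0.640 ± 0.120% of all UMIs in HT29-line cells and 0.183 ± 0.00886% in Caco-2-line cells (mean ± SD, n = 3 libraries), and the 15 glycolysis genes took 1.27 ± 0.131% and 0.795 ± 0.0603%.

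**Figure D1:**
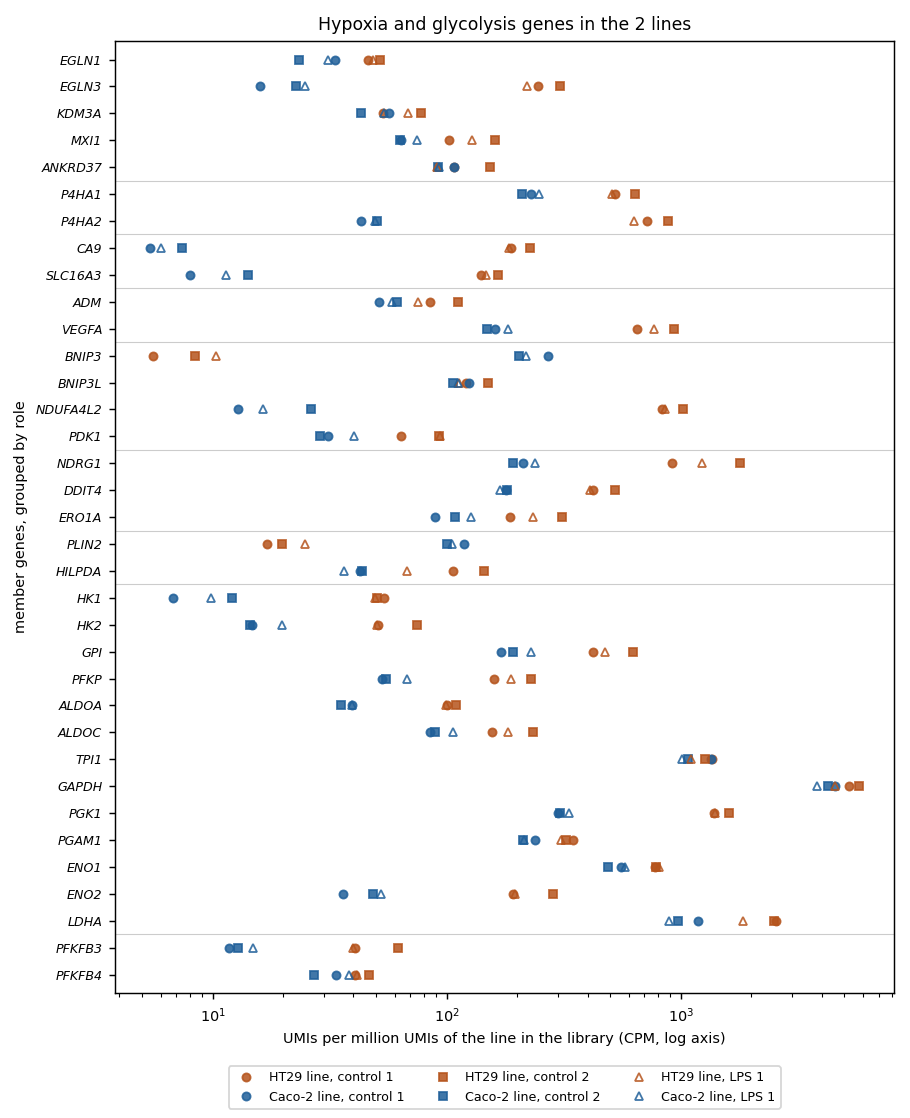
Level of each of the 35 genes in CPM of the line in the library (log axis), with HT29-line cells in orange, Caco-2-line cells in blue, circles for control 1, squares for control 2 and open triangles for LPS. CA9, SLC16A3, P4HA2, EGLN3 and NDUFA4L2 lie far apart with HT29-line values on the right, BNIP3 and PLIN2 lie apart in the other direction, and KDM3A, ANKRD37, BNIP3L and TPI1 overlap.

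Among the oxygen sensors, EGLN3, the HIF prolyl hydroxylase that the HIFs themselves induce, stood at 246, 305 and 221 CPM in HT29-line cells of control 1, control 2 and LPS. In Caco-2-line cells it stood at 15.9, 22.6 and 24.8 CPM. The lowest HT29-line value was well above the highest Caco-2-line value, and the log2 difference was 3.53 ± 0.11 (SE, edgeR adjusted p = 2.51e-22). EGLN1, the main hydroxylase that sets HIF stability in normal oxygen, differed less, with 46.1, 52 and 48.4 CPM against 33.4, 23.4 and 31 CPM (log2 0.66 ± 0.12). MXI1, a MYC antagonist induced by HIF, was 0.85 ± 0.10 higher on the log2 scale without overlap. KDM3A, a histone demethylase, passed the test at log2 0.28 (edgeR adjusted p = 0.0368), but its values overlapped and the call was lost without control 2, at log2 0.032. ANKRD37, a small HIF target, stood at 107, 153 and 90.6 CPM against 108, 92.1 and 93.1 CPM, and the groups overlapped.

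Both collagen prolyl 4-hydroxylase subunits, which modify procollagen in the endoplasmic reticulum, were higher in HT29-line cells. P4HA2 stood at 721, 883 and 629 CPM in HT29-line cells and at 42.9, 50.2 and 49.2 CPM in Caco-2-line cells, a 15.7-fold ratio of means. P4HA1 was 2.42-fold higher, with 522, 636 and 507 CPM against 228, 210.4 and 249 CPM. The subunits therefore differed in size of difference, and neither overlapped between the lines.

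CA9, a membrane carbonic anhydrase, is a widely used hypoxia marker. It stood at 188, 227 and 185 CPM in HT29-line cells and at 5.42, 7.39 and 6.03 CPM in Caco-2-line cells, with a log2 difference of 4.90 ± 0.11 (edgeR adjusted p = 3.04e-26). SLC16A3, the lactate exporter MCT4, stood at 140.1, 166 and 147 CPM against 8.04, 14.1 and 11.4 CPM, a 13.5-fold ratio. Values of neither gene overlapped between the lines. Of the secreted signals, the vascular growth factor VEGFA stood at 653, 938 and 768 CPM against 160.2, 148 and 184 CPM (log2 2.16 ± 0.10). The vasodilator peptide ADM was closer, at 84.7, 111 and 75.4 CPM against 51.5, 61.5 and 58.3 CPM (log2 0.57 ± 0.10). VEGFA and ADM were both higher in HT29-line cells in every library.

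The mitochondrial genes went in opposite directions. NDUFA4L2, a HIF-induced relative of a respiratory chain subunit that lowers oxygen use, stood at 829.7, 1024 and 855 CPM in HT29-line cells and at 12.8, 26.4 and 16.4 CPM in Caco-2-line cells. Its 48.7-fold ratio of means (log2 5.56 ± 0.11, edgeR adjusted p = 4.54e-27) was the largest of the 35 in that direction. BNIP3, a receptor that sends mitochondria to autophagy, stood at 5.59, 8.45 and 10.3 CPM in HT29-line cells and at 272, 204 and 217 CPM in Caco-2-line cells. It was therefore 28.5-fold lower in HT29-line cells (log2 -4.94 ± 0.15, edgeR adjusted p = 5.74e-23), while its paralog BNIP3L stood at 121, 150.1 and 113 CPM against 124, 106 and 112 CPM and did not pass the test (adjusted p = 0.534). PDK1, the kinase that switches off pyruvate dehydrogenase, was 2.51-fold higher in HT29-line cells.

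The 3 stress genes were all higher in HT29-line cells. NDRG1, a stress and differentiation gene strongly induced by hypoxia, stood at 922, 1785 and 1231 CPM against 212, 193 and 239 CPM, a 6.12-fold ratio with a wide spread between the HT29-line values. DDIT4, an inhibitor of mTORC1, stood at 422, 524 and 409 CPM against 179, 181 and 168 CPM. ERO1A, an oxidase for disulfide formation in the endoplasmic reticulum, was 2.25-fold higher. The lipid droplet genes split: the droplet coat gene PLIN2 was 5.25-fold lower in HT29-line cells, at 17, 19.7 and 24.8 CPM against 118, 99.9 and 105 CPM. HILPDA, an inhibitor of lipolysis, was 2.59-fold higher, at 107, 144 and 67.7 CPM against 42.7, 43.5 and 36.5 CPM.

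Of the 15 glycolysis genes 14 were higher in HT29-line cells and 0 lower, with log2 differences from 0.04 to 2.35 and a median of 1.26. The first enzymes of the pathway differed clearly. HK1 and HK2, the hexokinases, were 5.34-fold and 3.61-fold higher, and the hexose isomerase GPI and the phosphofructokinase subunit PFKP were 2.57-fold and 3.27-fold higher. The aldolases ALDOA and ALDOC were 2.70-fold and 2.05-fold higher, and none of these 6 genes overlapped between the lines. In lower glycolysis the phosphoglycerate kinase PGK1 stood at 1381, 1603 and 1406 CPM in HT29-line cells and at 299, 304 and 332 CPM in Caco-2-line cells (log2 2.14 ± 0.08). The enolase ENO2 was 4.92-fold higher and its partner ENO1 1.46-fold higher. LDHA, which turns pyruvate into lactate, stood at 2552, 2497 and 1837 CPM against 1182, 975 and 890.0 CPM (log2 1.08 ± 0.07).

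The triose steps differed little. TPI1, the triose isomerase, stood at 1362, 1269 and 1110.0 CPM against 1347, 1070.0 and 1012 CPM and did not pass the test (log2 0.04 ± 0.07, edgeR adjusted p = 0.639). GAPDH stood at 5242, 5775 and 4566 CPM against 4539.9, 4276 and 3824 CPM, a log2 difference of 0.20 ± 0.06 whose call was lost without control 2 (0.14, edgeR adjusted p = 0.0914). PGAM1 was 1.48-fold higher. Of the enzymes that make the phosphofructokinase activator fructose 2,6-bisphosphate, PFKFB3 was 3.61-fold higher and PFKFB4 passed the test at log2 0.30, a call lost without control 2 (log2 0.094). Reads of abundant enzymes such as GAPDH, PGK1 and LDHA can also match processed pseudogenes, none of which is listed under its parent's name in these tables, so these levels are uncertain to that extent.

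The 35 genes also differed in how many cells of a line carried a UMI. CA9 was detected in 48.5 ± 4.73% of HT29-line cells and 2.73 ± 0.523% of Caco-2-line cells (SD, n = 3), and with every cell thinned to 1500 UMIs in 25.6 ± 3.57% and 0.854 ± 0.242%. NDUFA4L2 was detected in 83.5 ± 4.89% against 3.99 ± 1.68% (66.2 ± 4.39% and 1.67 ± 0.995% when thinned). BNIP3 showed the reverse, with 2.96 ± 0.635% against 55.8 ± 9.56% (1.11 ± 0.729% and 27.5 ± 3.56% when thinned). Unthinned depths were medians of 3478.5 to 5262 UMIs in HT29-line cells and 3575 to 5494 in Caco-2-line cells. Line markers had low levels in the other line too. Those at 100 CPM or more reached there at least 1.51% of their own-line level for 67 HT29 genes and at least 1.23% for 11 Caco-2 genes. These markers assigned the cells, so their levels in the other line are no independent measure of free RNA in droplets. The levels of NDUFA4L2 and CA9 in Caco-2-line cells were 2.05% and 3.14% of those in HT29-line cells. Those of P4HA2, SLC16A3 and EGLN3 were 6.38%, 7.41% and 8.22%. All of these were below the median of 8.47% for the HT29 markers. BNIP3 in HT29-line cells was at 3.51% of its Caco-2-line level, above the median of 2.37% for the Caco-2 markers. How much of these low values is RNA of the other line was not tested.

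A further 7 pathway lists, chosen with earlier results known, were set beside the 35 genes in the line comparison. Of 28 other hypoxia targets tested, 17 were higher in HT29-line cells, 5 were lower and 6 did not pass, with a median log2 of 0.45. The lipase inhibitor ANGPTL4 was higher at log2 4.01 ± 0.22, and the mitochondrial gene FAM162A stood at 704, 704 and 610 CPM against 258, 199.7 and 198 CPM. Collagen cross-linking LOX and the secreted glycoprotein STC2 were lower in HT29-line cells, by log2 -3.90 and -4.82. Other glycolysis genes showed no such lean: of 17 tested, 3 were higher, 7 lower and 7 did not pass (median -0.37). Isoform partners split there, with the glucose transporter SLC2A1 at 1113, 1402 and 1148 CPM against 203, 225 and 265 CPM, and SLC2A3 at 38.1, 44 and 42.9 CPM against 532, 613 and 807 CPM.

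PKM, pyruvate kinase, was higher in HT29-line cells (log2 1.88 ± 0.07), while LDHB, the lactate dehydrogenase subunit that LDHA pairs with, was lower (-1.51 ± 0.08). Of 7 genes of the HIF machinery itself, 1 was higher and 4 were lower. HIF1A, the hypoxia-inducible subunit, was the higher one, with 65.5, 39.2 and 50.6 CPM against 35.6, 33.8 and 38.2 CPM (log2 0.42 ± 0.11), and EPAS1, the HIF2 subunit, was lower (log2 -0.74 ± 0.11). HIF1A and EPAS1 were named after their values were seen. HIF proteins are controlled mainly by stability, which RNA does not show. Gluconeogenesis split 2 to 2 of 4 tested, with PCK1 lower by log2 -4.38. Of 11 genes of pyruvate entry 1 was higher and 5 were lower, among them the carrier subunit MPC2 at -1.68. Pentose phosphate genes split 2 higher and 3 lower of 7. Of 10 ATF4 targets 8 were higher and 2 lower, and STC2 stands on both this list and that of hypoxia targets.

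The 35 genes were next compared along enterocyte maturation within the Caco-2 line. Caco-2-line cells of each library were ranked by their share of UMIs on 12 mature enterocyte genes such as APOA4 and FABP2, and the top 33.3% (enterocyte-high, 1292, 1281 and 1297 cells) were tested against the bottom 33.3% (enterocyte-low). These are ranges of a score and not cell types. In edgeR, 30 of the 35 genes were higher in enterocyte-high cells, 1 was lower (DDIT4) and 4 did not pass (ADM, VEGFA, HK1 and PFKFB3). Of the 12702 genes tested 63.4% were called, 31.9% higher and 31.5% lower, with a median log2 of -0.01 against 1.15 over the 35 genes. With library totals in place of TMM scaling the median of all genes moved to -0.29 and that of the 35 genes to 0.86, and 29 were higher and 2 lower. VEGFA was then lower (log2 -0.33) and SLC16A3 was no longer called (log2 0.091).

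NDRG1 changed strongly with the enterocyte score, at 341, 339 and 395 CPM in enterocyte-high cells against 95.8, 87.2 and 99.1 CPM in enterocyte-low cells (log2 2.21 ± 0.06, edgeR adjusted p = 4.15e-30). NDUFA4L2, although low in this line, stood at 17.2, 46.1 and 25 CPM against 3.88, 8.42 and 7.99 CPM (log2 2.41 ± 0.14). BNIP3 stood at 403, 328 and 322 CPM against 149, 119.5 and 129 CPM (log2 1.69 ± 0.06). NDRG1 and BNIP3 did not overlap between the groups by a wide margin, and NDUFA4L2 by a smaller one. The HIF prolyl hydroxylase EGLN3 rose by log2 1.76 ± 0.12. The HIF target ANKRD37 rose by 1.76 ± 0.07, from 61.8, 44.2 and 46.3 CPM to 139, 148 and 139.8 CPM. CA9 rose too, at levels of at most 10.7 CPM (log2 1.79 ± 0.20). In glycolysis ALDOC had the largest log2 change (1.60 ± 0.06), and LDHA went from 809, 586 and 568 CPM to 1537, 1406 and 1224 CPM (1.38 ± 0.06). TPI1, which did not separate the lines, was higher in enterocyte-high cells at 1652, 1396 and 1273 CPM against 1006, 788 and 760.2 CPM (1.04 ± 0.05).

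DDIT4 went the other way, at 93.5, 111 and 105 CPM in enterocyte-high and 257, 216 and 210.2 CPM in enterocyte-low cells (log2 -0.87 ± 0.06, edgeR adjusted p = 5.07e-15). It was the one gene in falling order over enterocyte-low, middle and enterocyte-high cells in all 3 libraries, and 24 of the 35 were in rising order in all 3. The share of all genes in such an order was not computed, so these counts have no background beside them. VEGFA, which was much higher in the HT29 line, stood at 128, 147 and 151 CPM in enterocyte-high and 185, 154 and 198 CPM in enterocyte-low cells (log2 -0.05 ± 0.06, not past the test). SLC16A3 was called higher at log2 0.37 although its CPM values overlapped, and the call was lost without control 2 (log2 0.34) and without the LPS library (log2 0.38), and in DESeq2 (log2 0.37). Of the pathway lists, 21 of 27 other hypoxia targets and 10 of 15 other glycolysis genes were higher and 3 of each lower, while of 10 ATF4 targets 2 were higher and 6 lower. Of the HIF machinery 1 was higher and 1 lower of 7, and of the other lists gluconeogenesis had 3 higher of 4 and pentose phosphate 5 lower of 7.

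**Figure D2:**
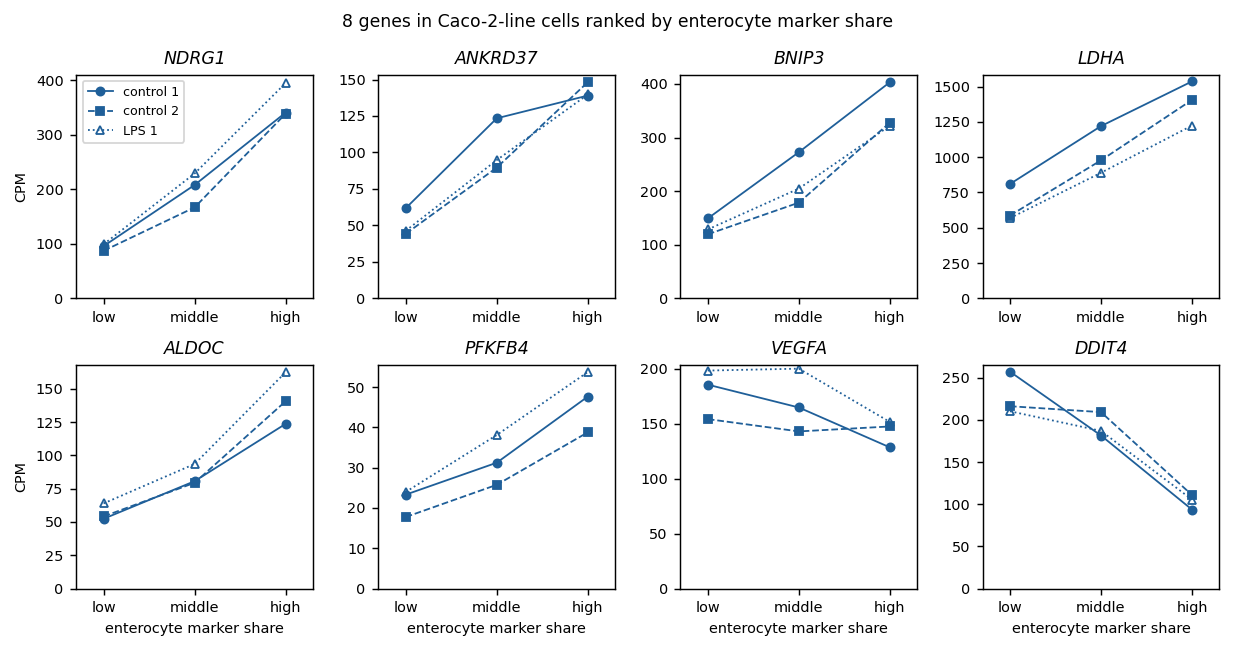
CPM (linear axes from 0, a scale for each gene) of 8 of the genes, picked after their values were seen, in enterocyte-low, middle and enterocyte-high Caco-2-line cells (33.3% of cells each by enterocyte marker share), 1 line per library. NDRG1, BNIP3 and LDHA rise in all 3 libraries, and DDIT4 falls in all 3 from 210.2 to 257 CPM to 93.5 to 111 CPM. VEGFA shows no common order over low, middle and high, although its CPM in enterocyte-high cells is below that in enterocyte-low cells in all 3.

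Cycling markers moved with the enterocyte score, with sums of 904 to 1078 CPM in enterocyte-high and 2396 to 2707 in enterocyte-low cells. Markers of the Caco-2 line were higher in enterocyte-high cells too (18631 to 21867 against 7240.0 to 10004 CPM). Those of the HT29 line were also higher there, at 6441 to 7236 against 4387 to 4841 CPM. How much of the rises of NDUFA4L2, CA9, EGLN3, P4HA2 and SLC16A3, all far lower in this line, is HT29-line RNA was not tested. Within the 50% of Caco-2-line cells with the lowest cycling share, a setting chosen after the data were seen, 28 of the 35 genes were higher and 4 lower, beside 50.3% of genes called. NDRG1 (log2 1.40), BNIP3 (1.40) and LDHA (1.19) remained higher there. DDIT4 (-1.56), HK1 (-1.21), PFKFB3 (-0.47) and VEGFA (-0.36) were lower, and CA9 (0.47) and SLC16A3 (-0.27) did not pass.

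The next comparison set the 25% of cells with the highest share of UMIs on 24 cycling genes (cycling cells) against the 50% with the lowest, within each line. In the Caco-2 line 25 of the 35 genes were lower in cycling cells and 0 higher (edgeR), where 54.5% of 13002 genes were called, 27.1% lower and 27.4% higher. The median log2 was -0.64 over the 35 genes and -0.01 over all genes. ANKRD37 fell most, at 47.1, 50.2 and 43 CPM against 169, 135 and 141 CPM (log2 -1.81 ± 0.07, adjusted p = 5.43e-14 in edgeR). NDRG1 stood at 122, 109.9 and 124 CPM against 296, 258 and 341 CPM (-1.46 ± 0.05), and HK2 fell by a like amount (-1.45 ± 0.12). MXI1 (-1.15), EGLN3 (-1.13), ENO2 (-1.04) and PFKFB4 (-1.03) followed. All 5 genes grouped under oxygen sensing and chromatin feedback (EGLN1, EGLN3, KDM3A, MXI1 and ANKRD37) were lower. Both collagen hydroxylases and both lipid droplet genes were lower too.

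Other members did not pass in the Caco-2 line: CA9, SLC16A3, VEGFA, NDUFA4L2, DDIT4, HK1, TPI1, PGAM1, ENO1 and PFKFB3, with log2 values from -0.31 to 0.17. Cycling cells held fewer enterocyte marker UMIs (2086 to 3277 against 8049.9 to 9946 CPM) and more UMIs in all (medians of 4715 to 7706 against 3217.5 to 4687). With library totals in place of TMM scaling the median of all genes was 0.12, and 4 genes were higher (DDIT4, TPI1, PGAM1 and ENO1) and 24 lower. Within enterocyte-low cells, a setting chosen after the data were seen in which 27.3% of genes were called, 16 were lower, among them ANKRD37 (-1.67), NDRG1 (-1.03), HK2 (-1.01) and DDIT4 (-0.46). The glycolytic enzymes ENO1 (0.42), PGAM1 (0.37), TPI1 (0.34) and LDHA (0.13) were the 4 that were higher there, while PGK1 (0.16) and GAPDH (-0.047) did not pass. Over all Caco-2-line cells 19 of 27 other hypoxia targets were lower in cycling cells and 2 higher, of 16 other glycolysis genes 7 were lower and 3 higher, and of 7 pentose phosphate genes 6 were higher and 1 lower.

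In the HT29 line a contrast made in the same way rested on fewer cells, 156, 238 and 196 against 313, 476 and 393, and the lower group held 0 cycling UMIs in every library, taken in file order among ties. Cycling markers summed to 1498 to 1754 CPM in its cycling cells, against 4517 to 5250 CPM in those of the Caco-2 line. Over all Caco-2-line cells they summed to 1765 to 2080 CPM, so the contrasts of the 2 lines are not alike in cycling level. In the HT29 line 12 genes were lower and 2 higher (edgeR), beside 7.96% of 8734 genes called, 3.39% lower and 4.57% higher, and the medians were -0.25 over the 35 genes and -0.0049 over all. P4HA2 was lower at 561, 587 and 607 CPM against 813, 1007 and 679 CPM (log2 -0.57 ± 0.08, edgeR adjusted p = 1.88e-08). ANKRD37 (-0.60), ERO1A (-0.52), ENO2 (-0.45), ALDOC (-0.43), VEGFA (-0.40), NDRG1 (-0.37) and DDIT4 (-0.35) were lower as well. CA9 was higher at 235, 268 and 239 CPM against 176, 216 and 168 CPM (0.33 ± 0.10, edgeR adjusted p = 0.0201), and BNIP3 at 9.73, 11.9 and 20.9 CPM against 4.81, 6.62 and 5.59 CPM (1.19 ± 0.37, edgeR adjusted p = 0.0278).

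These calls in the HT29 line depended on the settings. DESeq2 left 2 genes lower and 0 higher, the fit without the library block left 1 and 0, and the calls of CA9 and BNIP3 were lost without the LPS library (log2 0.28 and 0.82). Without control 2 the count of lower genes was 7. Caco-2-line markers were also higher in the cycling HT29-line cells, at 419 to 572 against 311 to 375 CPM, and their part in the BNIP3 value was not tested.

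**Figure D3:**
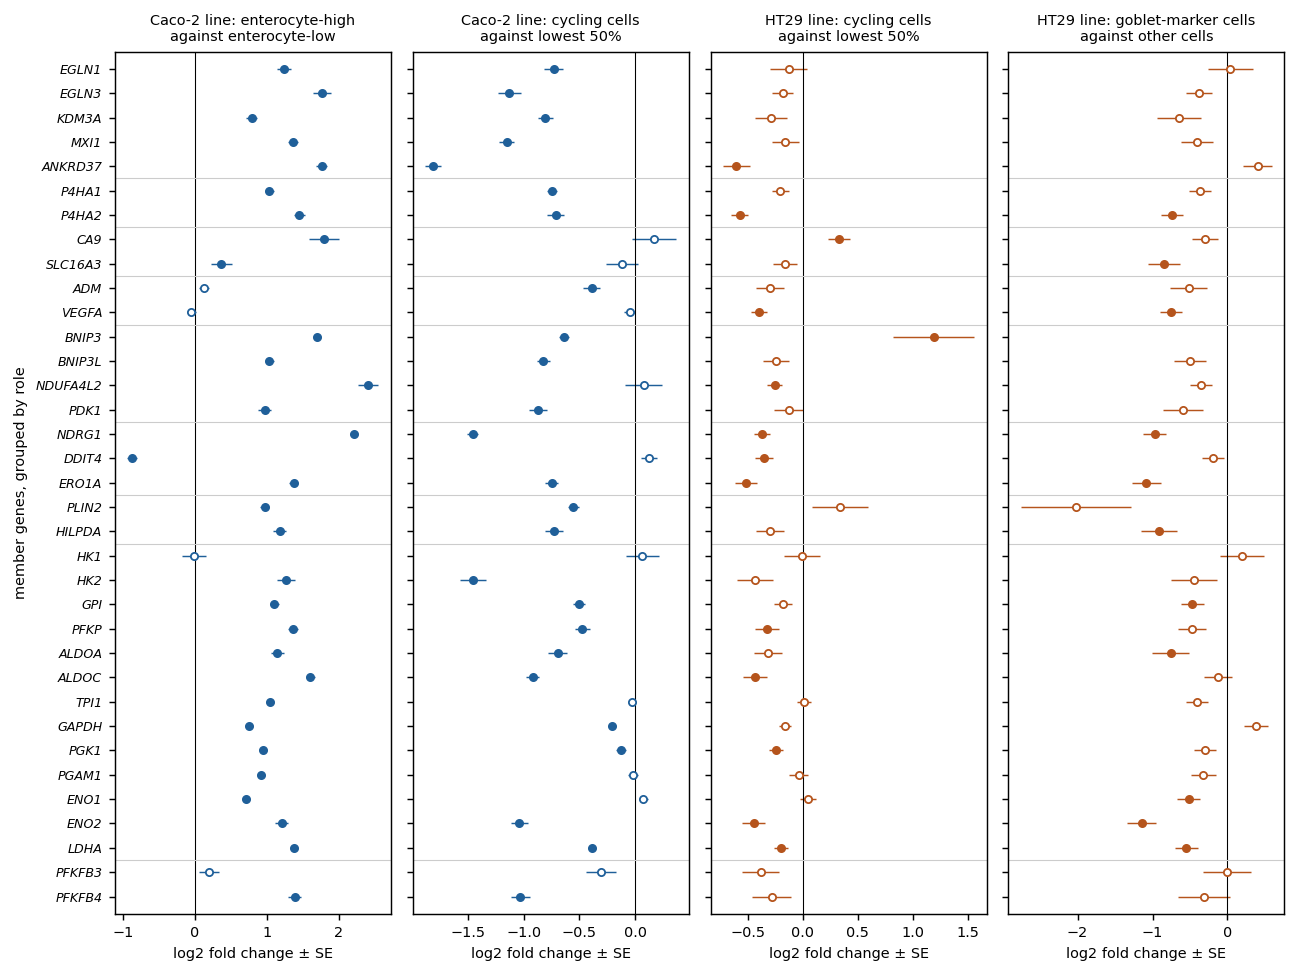
Log2 fold change with its standard error for each of the 35 genes in 4 contrasts within a line (enterocyte-high and cycling cells of the Caco-2 line, cycling and goblet-marker cells of the HT29 line), where filled points passed an edgeR adjusted p of 0.05 the x axes differ between panels and BNIP3 has no point for goblet-marker cells. Most genes lie above 0 for the enterocyte score and below 0 in the other 3 contrasts, with DDIT4 as the one filled point below 0 in the enterocyte panel.

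EGLN3 and CA9 are genes the study named in its goblet-like cluster, which it set against the other clusters of the whole co-culture. The study also reported these genes as inactive in goblet cells of adult and fetal gut, a comparison not made here. Here the groups were different, since both came from the HT29 line. HT29-line cells with UMIs of at least 2 of MUC2, FCGBP and SPDEF (36, 44 and 28 cells) were compared with HT29-line cells with none (429, 728 and 583). Of the 35 genes 34 could be tested, all but BNIP3. In edgeR 11 were lower in the goblet-marker cells and 0 higher, beside 9.38% of 8884 genes called, 5.44% lower and 3.94% higher. The median log2 was -0.46 over the 34 genes and -0.01 over all genes. NDRG1 stood at 604, 837 and 723 CPM against 1023, 1901 and 1285 CPM (log2 -0.97 ± 0.15, edgeR adjusted p = 8.62e-09). ENO2 stood at 95.1, 146 and 89.1 CPM against 209, 303 and 209 CPM (-1.15 ± 0.20) and ERO1A at 80.5, 136 and 188 CPM against 197, 332 and 242 CPM (-1.08 ± 0.20). NDRG1, ENO2 and ERO1A were the 3 whose calls held with each library left out in turn.

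VEGFA (-0.75), P4HA2 (-0.74), SLC16A3 (-0.84), HILPDA (-0.92), LDHA (-0.55), ENO1 (-0.52), ALDOA (-0.76) and GPI (-0.47) were lower too, and all 8 calls were lost without control 2. P4HA2 went the other way in the LPS library, at 713 against 659.9 CPM, as did GPI, at 495 against 486 CPM. CA9 stood at 176, 181 and 178 CPM against 203, 239 and 199 CPM and did not pass (-0.30 ± 0.18, edgeR adjusted p = 0.374). EGLN3 stood at 219.5, 232 and 178 CPM against 257, 317 and 237 CPM (-0.38 ± 0.17, edgeR adjusted p = 0.17). Both were below the other cells in every library. GAPDH was above them in every library, at 6234, 8082 and 6288 CPM against 5158, 5646 and 4460.3 CPM (0.39 ± 0.16, edgeR adjusted p = 0.123), and was called higher with library totals. Cycling markers summed to 887 to 1049.6 CPM in the goblet-marker cells and 384 to 453 CPM in the others, and their part in these differences was not tested.

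The LPS library was compared with the controls within each line. This was 1 library against 2, in which the lone library is assumed to vary as the controls do. In HT29-line cells 0 of the 35 genes were called in edgeR, where 0.0399% of 15027 genes passed. An unadjusted p under 0.05 was found for 5 of the 35, beside 576 of the 15027. DESeq2 also called 0. On simulated data the edgeR test in HT29-line cells recovered 26.8% of planted log2 changes of 1, so a lack of calls does not show a lack of response. In Caco-2-line cells 0 were called beside 0.0133% of genes, with 1 at an unadjusted p under 0.05, beside 544 of the 15027. The test of the difference between the lines called 0 beside 0.00665%, with 3 at an unadjusted p under 0.05, beside 342. That test had no library block, although both lines came from the same libraries. With the block, an alternative chosen after the data were seen that leaves 1 residual degree of freedom, 0 of the 35 and 14 of 15027 genes were called. An unadjusted p under 0.05 was then found for 9 of the 35, beside 558 of the 15027. The median log2 was -0.19 over the 35 genes in HT29-line cells and -0.01 over all genes. There 17 of the 35 lay below both controls and 4 above, beside 25.1% and 37.7% of all genes. In Caco-2-line cells the medians were 0.01 and 0.0033, with 5 below and 16 above, beside 23.7% and 50.4%. The HT29 median rested on the choice of control: it was -0.37 against control 2 alone and -0.04 against control 1 alone, and control 2 was the highest of the 3 libraries for 27 of the 35 genes. How often control 2 was the highest over all genes was not computed.

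HILPDA had the smallest p of the 35 in HT29-line cells, at 107 and 144 CPM in the controls and 67.7 CPM with LPS (log2 -0.95 ± 0.21, edgeR adjusted p = 0.389). With no filter on low counts the same difference passed (edgeR adjusted p = 0.00455). In Caco-2-line cells HILPDA stood at 42.7 and 43.5 CPM against 36.5 CPM. LDHA was at 2552 and 2497 against 1837 CPM in HT29-line cells and at 1182 and 975 against 890.0 CPM in Caco-2-line cells (log2 -0.52 ± 0.17 and -0.37 ± 0.17). In CPM, DDIT4, HILPDA, TPI1, GAPDH and LDHA were below both controls in both lines, and PDK1 and ENO1 were above both controls in both. After TMM scaling the log2 change of ENO1 was -0.0033 in HT29-line and 0.048 in Caco-2-line cells, and that of PDK1 was 0.20 and 0.32. The share of all genes outside the controls was computed for each line alone and not for both lines together. The lines of a library share a culture and a sequencing run, so they are not independent replicates of the treatment. Sequencing depth was lowest in the LPS library, and its part was not tested. None of the genes on the 7 further pathway lists passed in either line.

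**Figure D4:**
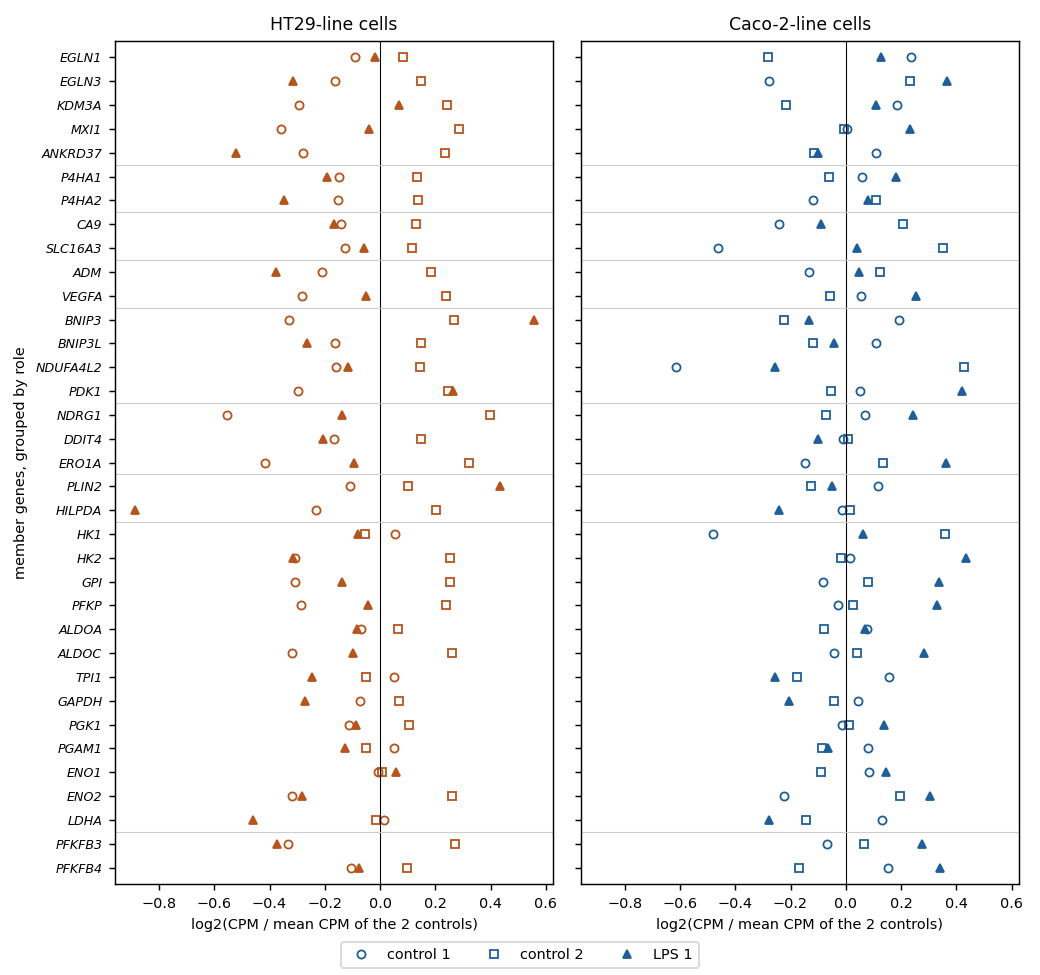
Level of each gene in each library relative to the mean of the 2 controls (log2), as open circles (control 1), open squares (control 2) and filled triangles (LPS), with HT29-line and Caco-2-line cells in separate panels. In HT29-line cells control 2 is the highest of the 3 libraries for 27 of the 35 genes, a count with no background over all genes. HILPDA and LDHA lie left of both controls in both panels.

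The spread of the 35 genes across single cells was described within each line. With every cell thinned to 1500 UMIs, the 20 genes outside glycolysis had medians of 8, 11 and 9 UMIs per HT29-line cell, and with the lowest 10% and highest 10% of cells set aside they spanned 2 to 19, 4 to 22 and 2 to 19. In Caco-2-line cells the medians were 2, 2 and 3. The means were 9.63 to 12.5 UMIs in HT29-line cells and 2.79 to 3.06 in Caco-2-line cells, and the part of this level in the spread and in r was not tested. The variance was 4.67 to 5.64 times the mean in HT29-line cells and 2.16 to 2.35 times in Caco-2-line cells. The sum over these 20 genes and the sum over the 15 glycolysis genes had a Pearson r of 0.40 to 0.51 across HT29-line cells and 0.25 to 0.28 across Caco-2-line cells. Cells share a library, a depth and one culture, and sparse genes give low r, so these values are descriptions without a test.

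Of the 595 pairs of the 35 genes 390 had a positive r in all 3 libraries in HT29-line cells (median over pairs 0.053) and 404 in Caco-2-line cells (0.031). Pairs of other genes at like levels were not counted, so these counts have no background beside them. GAPDH with LDHA and PGK1 with LDHA were the highest pairs in the HT29 line, both with a mean r of 0.41. P4HA2 with NDRG1 and VEGFA with NDRG1 followed at 0.33 each, which joins genes of different roles. In the Caco-2 line TPI1 with LDHA (0.24), TPI1 with GAPDH (0.23), GAPDH with LDHA (0.22) and ANKRD37 with LDHA (0.21) were highest. Against the sum of the other 34 genes LDHA had the highest mean r in both lines, 0.54 in HT29 and 0.40 in Caco-2. NDUFA4L2 stood at 0.47 and P4HA2 at 0.38 in HT29-line cells, and BNIP3, rarely detected there, at 0.00034. In Caco-2-line cells BNIP3 stood at 0.19, NDRG1 at 0.26 and DDIT4 at -0.035.

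**Figure D5:**
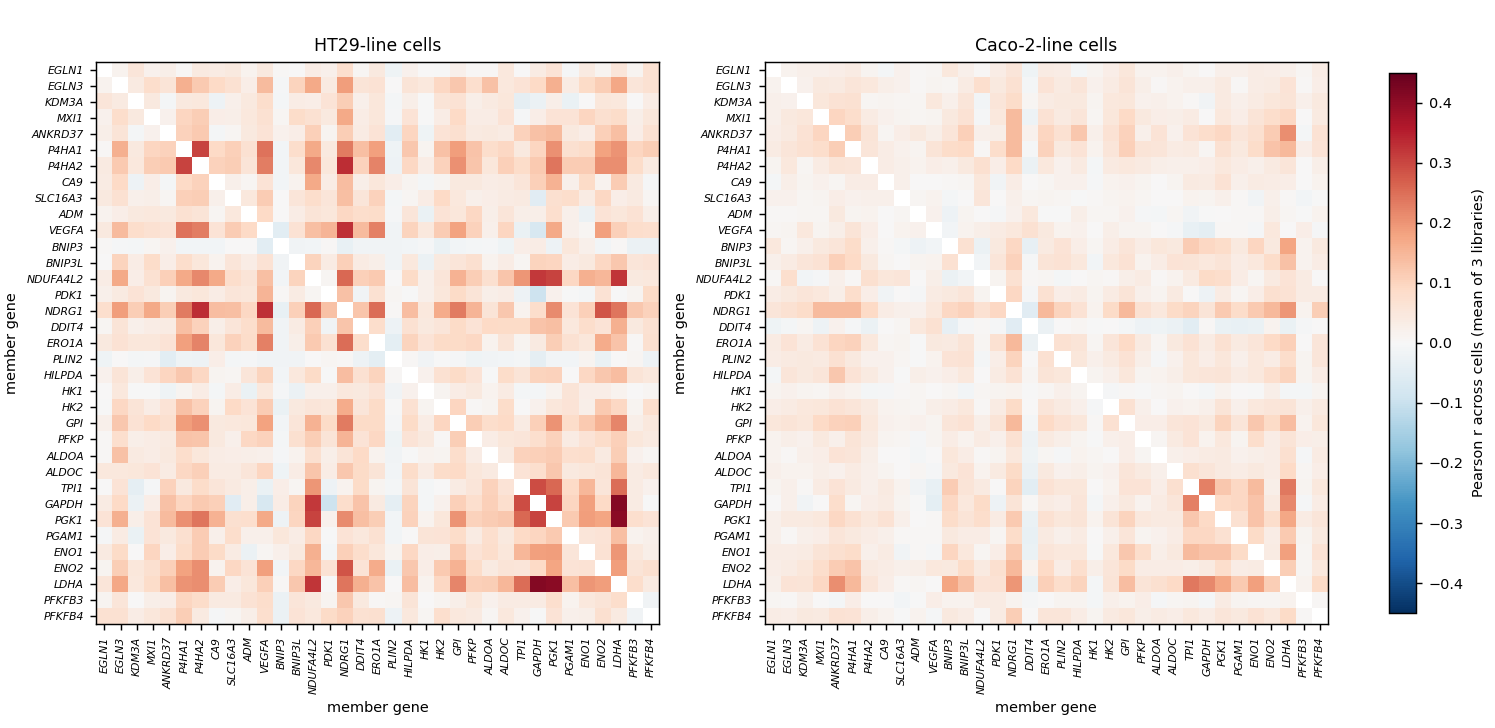
Pearson r between each pair of the 35 genes across thinned cells of a line, as the mean of 3 libraries, on a colour scale from blue (negative) through white (0) to red (positive), with the diagonal left blank. The darkest squares join LDHA with GAPDH and LDHA with PGK1 in HT29-line cells (0.41 each), those of Caco-2-line cells are paler, and the row of DDIT4 is faintly blue there.

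Among 3318 other genes with a UMI in at least 5% of HT29-line cells, those most like the sum of the 20 genes outside glycolysis were the glucose transporter SLC2A1 (mean r 0.42), the sodium pump subunit ATP1B1 (0.32), the collagen lysyl hydroxylase PLOD2 (0.31), QSOX1 (0.31), PKM (0.30), ERRFI1 (0.30), the creatine transporter SLC6A8 (0.29), AGRN (0.26), FAM162A (0.25) and SPINT2 (0.24). QSOX1, AGRN and SPINT2 are also on the list that assigned cells to the HT29 line. Among 3046 genes in Caco-2-line cells the order was SLC2A3 (0.30), the iron transporter SLC11A2 (0.25), SORL1 (0.24), LGALS14 (0.23), PLOD2 (0.23), CKB (0.22), FAM13A (0.22), C4orf3 (0.21), the apolipoprotein APOC3 (0.21) and S100A6 (0.20). PLOD2 was on both lists. A different glucose transporter led in each line, SLC2A1 in HT29 and SLC2A3 in Caco-2, the same members of the family that were each higher in that line. The sum of the 20 genes had a mean Spearman rho with the enterocyte marker share of 0.26 in Caco-2-line cells and 0.060 in HT29-line cells, and with the cycling marker share of -0.19 and -0.11.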

How the data were processed

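Single-cell RNA of 2 control co-cultures and 1 LPS co-culture was analysed. The authors deposited UMI counts per gene and barcode, made with Cell Ranger 3.1.0 per the file headers on GRCh38 and not normalized; the study's methods name another Cell Ranger version. The 35 genes and all lists were chosen with earlier results of these data known. The study's minimums for the controls were applied to cells: 2250 UMIs with 770 genes for control 1, 1500 with 700 for control 2 and also for LPS, and at most 20% mitochondrial UMIs. Scrublet (scanpy 1.11.5) marked 0, 0 and 1 doublets by its automatic threshold, so the 6% with the highest scores were removed (296, 318 and 310 cells). The line of a cell came from a 2-component Gaussian mixture per library (scikit-learn 1.9.0) on the log2 ratio of HT29 to Caco-2 marker UMIs, at a posterior of at least 0.99.

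UMIs were summed per group of cells and library and tested with edgeR 4.0.16 in R 4.3.3 (quasi-likelihood test, TMM scaling, filterByExpr, Benjamini-Hochberg over all genes tested, threshold 0.05), with the library as a block where both groups came from the same libraries, except for the difference of the LPS effects, where the block was an added alternative. Fold changes are thus relative to TMM scaling, while CPM values use library totals. Groups that share a library come from the same Transwell, and deviations of the 2 lines from their means correlated at r = 0.49, 0.11 and 0.38 over 6225 genes in control 1, control 2 and LPS. DESeq2 1.42.0 was an alternative, with other filters, scalings, doublet and line settings and each library left out. Scripts were tested on simulated data with planted log2 changes of 1 and 2. The line test recovered 74.0% and 96.8% of them and the enterocyte test 85.1% and 100%. The goblet-marker test recovered 33.3% and 78.4%, and the LPS test in HT29-line cells 26.8% and 73.5%. Named genes are the 35; pathway list genes past the threshold between the lines with a log2 change of at least 1; and the 10 other genes most correlated with the 20 outside glycolysis in each line, exceptions being said. Coordinates are from RefSeq promoters on GRCh38.p14. Overlapping genes on the same strand held at most 2.23% as many UMIs as the gene itself (ATP7A beside PGK1). That share counts only UMIs given to the overlapping gene. It cannot show how many reads a gene such as ALDOA or PGK1 lost to the overlap, which was not tested.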

Additional observations from a re-analysis of the deposited data

Results flagged for a closer look

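BNIP3 was lower in cycling cells of the Caco-2 line (log2 -0.64) and higher in cycling cells of the HT29 line (1.19), so the directions were opposite, and the difference between the lines was not tested. In the HT29 line the call rested on at most 20.9 CPM and was lost without the LPS library or without control 1.

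In 4 genes the LPS library lay outside both controls on opposite sides in the lines. Of all genes tested 25.1% lay below both controls in HT29-line cells and 50.4% above both in Caco-2-line cells. The share of all genes with opposite sides was not computed, so the count of 4 is only a description. EGLN3 was below them in HT29-line cells (log2 -0.38) and above them in Caco-2-line cells (0.28). P4HA1 was at -0.25 and 0.086, HK2 at -0.37 and 0.34, and PFKFB3 at -0.43 and 0.18. The test of the difference gave log2 values of -0.65 for EGLN3, -0.34 for P4HA1, -0.71 for HK2 and -0.62 for PFKFB3, none past the threshold (edgeR adjusted p = 1.00). With the library as a block they were -0.66, -0.33, -0.69 and -0.59, and the edgeR adjusted p ran from 0.524 to 1.00.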

How the results depend on the processing

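A set of 4 settings was chosen after the data were seen: library totals without TMM, a library block for the difference of the LPS effects, the enterocyte contrast within low-cycling cells, and the cycling contrast within enterocyte-low cells. Between the lines 27 to 31 genes were higher and 2 lower in every alternative run. For LPS, no low-count filter gave 42 genes called in HT29-line cells with 1 of the 35 lower, 21 in Caco-2-line cells and 5 for the difference, the replicate block gave 14 for the difference with 0 of the 35 called, bulk signatures gave 2 in HT29-line and 0 in Caco-2-line cells, and the minimums of control 1 gave 0 in Caco-2-line cells. In goblet-marker cells DESeq2 gave 333 genes called and 6 of the 35 lower, no library block 6 lower, library totals 1 higher, and leaving out each library 382 to 686 genes, 3 to 13 of the 35 lower. For enterocyte-high cells 2 were lower with library totals, 4 within low-cycling cells and 1 to 2 with a library left out. SLC16A3 (-0.27) and PFKFB3 (-0.47) reversed within low-cycling cells. In cycling Caco-2-line cells 4 were higher with library totals, 1 with doublets kept, 4 within enterocyte-low cells (16 lower) and 0 to 1 with a library left out, and genes called were 4227 with DESeq2 and 2974 within enterocyte-low cells. Reversals there were NDUFA4L2 with doublets kept (-0.56), TPI1 (0.10), PGK1 (0.00079) and PGAM1 (0.11) with library totals, and DDIT4 (-0.46), GPI (0.022), PFKP (0.27), TPI1 (0.34), PGK1 (0.16), PGAM1 (0.37) and LDHA (0.13) within enterocyte-low cells. In cycling HT29-line cells DESeq2 gave 204 genes called with 0 of the 35 higher and 2 lower, no library block gave 243 with 0 higher and 1 lower, no filter 1 higher, and leaving out each library 432 to 584, 0 to 2 higher and 7 to 14 lower. These causes were not tested. No paired analysis was possible because the LPS and control libraries share only replicate number 1 within a line, and each LPS test without a control has no residual degrees of freedom. Without the library block KDM3A (0.28), GAPDH (0.21) and PFKFB4 (0.28) were no longer called between the lines, nor SLC16A3 (0.37) in enterocyte-high cells, nor GAPDH (-0.21), PGK1 (-0.13) and LDHA (-0.39) in cycling Caco-2-line cells, and beside the goblet-marker, cycling HT29-line and LPS difference counts above it moved no count by over 1.5 times. Goblet-marker sums rest on 36, 44 and 28 cells.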
